A study of Homo sapiens with 4 samples.

Results

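The 36 genes described here encode the apoptosis machinery, the proteins that hold back or carry out programmed cell death. They were chosen by name, from the BCL2 family, the inhibitor of apoptosis proteins (IAPs), the caspases, the apoptosome and the death receptor pathway. All 36 were found by Ensembl identifier among the 63677 genes counted. Of these, 9 encode proteins that restrain death and 27 encode proteins that promote it. A filter on low counts left 35 of the 36 among 17143 genes tested, and *CASP10* was the member that did not pass.

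In the mitochondrial route to apoptosis, BH3-only proteins sense stress and bind the anti-apoptotic BCL2 proteins, which otherwise hold BAX and BAK1 in check. Once BAX and BAK1 open the outer mitochondrial membrane, cytochrome c joins APAF1 to form the apoptosome, which activates caspase-9, while DIABLO and HTRA2 relieve the block that IAPs place on caspases. In the death receptor route, FAS or the receptors of the ligand TNFSF10 recruit FADD and caspase-8, and CFLAR, a relative of caspase-8 with little protease activity of its own, competes for a place in that complex.

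FLO-1 is an established human cell line of esophageal adenocarcinoma, the gland-forming cancer of the esophagus, and is referred to here as parental. FLO-1LM is 1 subline of it, established from a liver deposit that formed after the cells had been passaged serially through immunodeficient NSG mice, so it stands for a single selection history. RNA was taken from untreated cells of both lines, grown in culture to 80% confluency and collected 24 hours after fresh medium, and 2 RNAseq libraries were made per line. The study compared the lines for programmed cell death and for anti-apoptotic transcripts, and the comparison below asks which transcripts of this machinery differed between them.

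Total counts on genes ran from 19060310 to 25920336 per library. Whether a line's libraries were made from different cultures is not stated. The p-values, standard errors and intervals therefore measure only the spread between these libraries, which may be technical. The epithelial markers *KRT8*, *KRT18*, *KRT19*, *CDH1* and *CLDN4* were above 1 CPM (a count scaled for library size) in every library, whereas *EPCAM*, another epithelial marker, had 3 to 12 counts. These 6 markers summed to 489 to 505 CPM in FLO-1LM and 863 to 874 CPM in parental cells, and the part of that difference in the results was not tested. Markers of other cell types were at or near 0 for leukocytes (5 markers, summed level at most 0.314 CPM, *PTPRC* at 0) and endothelium (3 of 4 markers matched, at most 0.313 CPM). For hepatocytes the summed level of 5 markers was 13.4 to 18.1 CPM, from *SERPINA1*, with *ALB*, *TTR* and *FGB* at 0, and for fibroblasts it was 9.91 to 12.97 CPM, from *COL1A1*, with *COL3A1* and *DCN* at 0. These markers are human genes, and reads were mapped to the human genome. Their levels therefore cannot reliably show whether mouse cells were carried over into FLO-1LM. Mitochondrially encoded genes took 9.57% to 9.96% of counts in FLO-1LM and 7.93% to 8.31% in parental cells.

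The transcripts of this machinery differed far more between genes than between the lines. Levels of different genes were compared in TPM, in which counts are divided by transcript length and scaled to the same total in each library, averaged over the 4 libraries. The highest was *MCL1*, an anti-apoptotic BCL2 protein that turns over rapidly, at 144 TPM. It was followed by *BIRC5*, the IAP family member survivin, which also acts in cell division, at 122 TPM, and by *BID*, the BH3-only protein that caspase-8 cuts to link both routes, at 103 TPM. These 3 kept their ranks when lengths were taken from all annotated exons in place of 1 transcript per gene. The ranks below them depended on that choice, as *AIFM1*, at 93.4 TPM, ranked 4 by the first measure and 17 by the second.

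At the other end, 5 members had the lowest levels in TPM, and their ranks were the same by both measures. *HRK* was at 1.41 TPM, with 71 to 104 counts per library. *TNFSF10* was at 0.857 TPM, *CASP4* at 0.656, *BCL2* at 0.147 and *CASP10* at 0.0496, each with at most 27 counts in a library. *CASP10* had 6 and 2 counts in the FLO-1LM libraries and 0 and 4 in the parental libraries, too few to test. It lies between 2 expressed neighbours on chromosome 2 (build GRCh37), with *CFLAR* at 201980877 to 202041410, *CASP10* at 202047595 to 202094151 and *CASP8* at 202098166 to 202226559. *CFLAR* was at 14.04 TPM and *CASP8* at 19.1 TPM, so the middle gene of this cluster of related genes was listed near 0 beside 2 that were not.

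**Figure D1:**
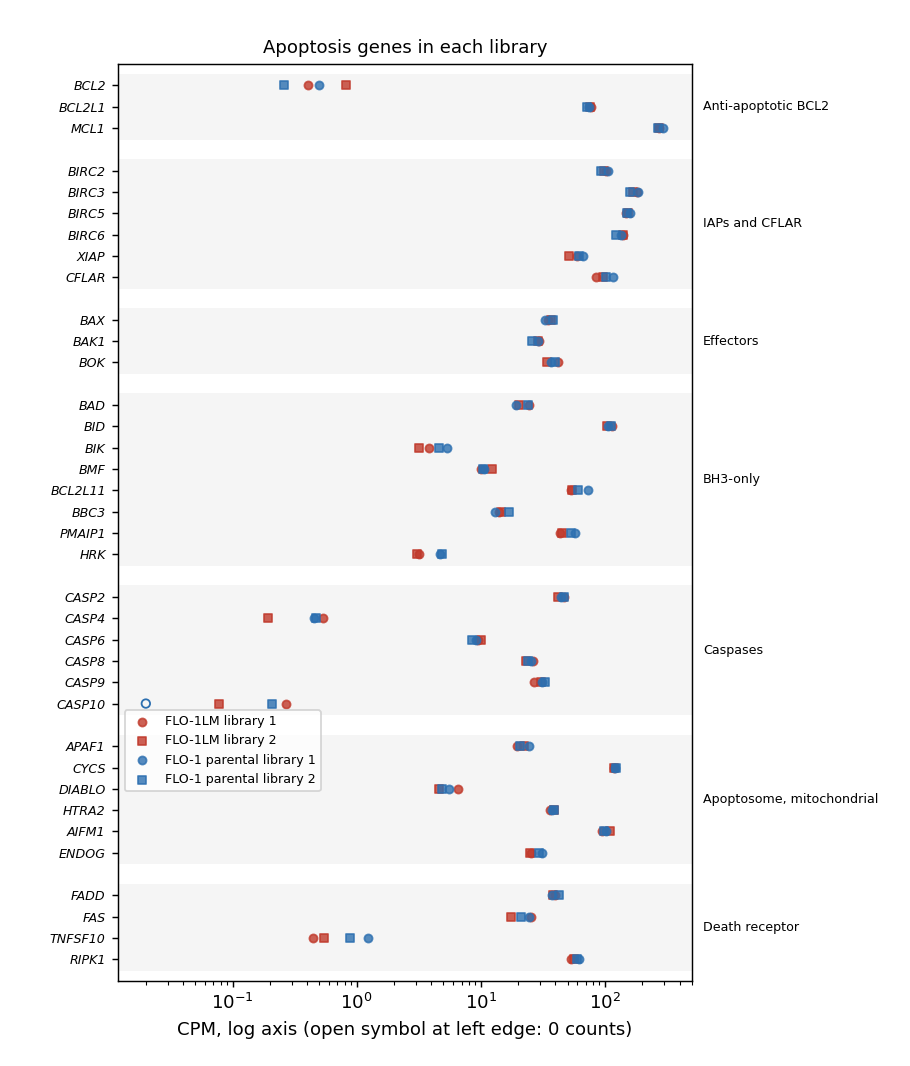
Expression of the 36 apoptosis genes in each of the 4 libraries, grouped by role, in CPM after TMM scaling on a log axis, where an open symbol at the left edge marks 0 counts. The symbols of the lines lie on top of each other for most genes, and the spread is wide in the genes with the fewest counts (*BCL2*, *CASP4*, *CASP10* and *TNFSF10*).

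None of the 35 members tested passed at an adjusted p below 0.05 (edgeR quasi-likelihood test, Benjamini-Hochberg adjustment over 17143 genes), where 2.23% of all tested genes did, 1.83% lower and 0.402% higher in FLO-1LM. The count was also 0 with DESeq2 and with limma voom, where 1.97% and 2.15% of all tested genes passed. At an unadjusted p below 0.05, edgeR gave 6 members (17.1%), DESeq2 gave 3 and limma voom gave 6. Among all 17143 genes tested, DESeq2 gave 1440 at that threshold and limma voom gave 2167. In DESeq2 the share of members at that threshold was thus close to the share of all tested genes. All 6 from edgeR were lower in FLO-1LM: the death inhibitors *XIAP* and *CFLAR*, the BH3-only genes *BCL2L11*, *PMAIP1* and *HRK*, and the nuclease gene *ENDOG*. Of all tested genes, 12.4% had such a p in edgeR, 7.08% lower and 5.28% higher. Both libraries of FLO-1LM lay below both parental libraries for 11 members (31.4%, against 21.7% of all tested genes) and above them for 3 members (8.57%, against 20.9%). In bulk RNA, fewer cells that express a gene and less RNA per cell cannot be told apart.

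The median log2 fold change, FLO-1LM over parental, was 0.01 for the 9 anti-apoptotic members and −0.04 for the 26 pro-apoptotic members tested, and 0.0016 for all tested genes. Estimates lay below 0 for 22 of 35 members (62.9%, against 49.6% of all tested genes). The median standard error (SE) of a member's log2 fold change was 0.111, and the libraries of 1 line differed from each other by a median of 0.114 (FLO-1LM) or 0.131 (parental) on the same scale.

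Among the anti-apoptotic BCL2 genes, *MCL1* and *BCL2L1* stood at nearly the same level in both lines. *MCL1* was at 272 and 274 CPM in FLO-1LM and at 294 and 268 CPM in parental cells, a log2 fold change of −0.04 ± 0.074 (SE, 95% interval −0.20 to 0.11, edgeR adjusted p = 0.894). The parental libraries lay on either side of the FLO-1LM libraries. *BCL2L1*, which encodes BCL-XL, was at 77.3 and 75.9 CPM in FLO-1LM and at 75.03 and 72.4 CPM in parental cells (log2 fold change 0.05 ± 0.085, 95% interval −0.12 to 0.23, edgeR adjusted p = 0.874). Both FLO-1LM libraries were above both parental libraries, by less than 1 SE of the fold change. The intervals leave room for a *BCL2L1* level in FLO-1LM between 0.918 and 1.17 times the parental level, and for an *MCL1* level between 0.872 and 1.08 times.

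*BCL2* itself, the founding member of the family, could not be resolved at this depth. It had 9 and 21 counts in FLO-1LM and 11 and 5 counts in parental cells. The lower FLO-1LM library lay between the parental libraries, and the log2 fold change of 0.67 had an SE of 0.77 (edgeR adjusted p = 0.812). Its interval runs from 0.523 to 4.85 times the parental level, and the estimate was 0.070 without the second FLO-1LM library and 1.22 without the first parental library, so a 1.5-fold difference in *BCL2* mRNA was not detectable at this depth in either direction. *BCL2L2* encodes the related protein BCL-w and is not among the 36. It was at 42.2 and 45.4 CPM in FLO-1LM and 43.1 and 42.8 CPM in parental cells (log2 fold change 0.03 ± 0.099, 95% interval −0.18 to 0.24, edgeR adjusted p = 0.948). Of its exon bases, 16.8% are shared on the same strand with *BCL2L2-PABPN1*, which had 0.011 times its counts.

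Of the 5 IAP genes, 4 had intervals that reached across 0. *BIRC2* and *BIRC3* encode cIAP1 and cIAP2, ubiquitin ligases that act on RIPK1, and lie next to each other on chromosome 11 (GRCh37, *BIRC3* at 102188215 to 102210134 and *BIRC2* at 102217942 to 102249401). *BIRC2* was at 102 and 98.5 CPM in FLO-1LM and 105 and 93.6 CPM in parental cells, and *BIRC3* at 183 and 170 CPM in FLO-1LM and 185 and 159 CPM in parental cells. In both genes the FLO-1LM libraries lay between the parental libraries, with log2 fold changes of 0.01 ± 0.084 and 0.03 ± 0.084. *BIRC5* was at 147 and 155 CPM in FLO-1LM and 160 and 151 CPM in parental cells, with overlapping lines (−0.05 ± 0.077). *BIRC6*, a very large IAP with a ubiquitin-conjugating domain, was at 140.2 and 138.7 CPM in FLO-1LM and 135.1 and 122.7 CPM in parental cells. Its FLO-1LM libraries were the higher ones, with a log2 fold change of 0.11 ± 0.079 (edgeR adjusted p = 0.637).

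*XIAP* and *CFLAR*, the remaining inhibitors, had lower values in FLO-1LM and did not pass the adjusted threshold. *XIAP*, which binds and inhibits caspases directly, was at 59.2 and 51.0 CPM in FLO-1LM and 66.2 and 61.4 CPM in parental cells. The lines did not overlap, but the FLO-1LM libraries differed from each other by more than the gap between the lines (log2 fold change −0.21 ± 0.098, 95% interval −0.42 to −0.01, edgeR adjusted p = 0.377). *CFLAR* was at 84.7 and 97.03 CPM in FLO-1LM and 115.5 and 101.9 CPM in parental cells (−0.26 ± 0.091, 95% interval −0.45 to −0.07, edgeR adjusted p = 0.201). Again the lines did not overlap, and the nearest libraries of the lines were closer to each other than libraries of the same line. Both values turned on single libraries. *XIAP* had −0.33 (edgeR adjusted p = 0.0337) without the first FLO-1LM library and −0.11 (edgeR adjusted p = 0.623) without the second. *CFLAR* had −0.36 (edgeR adjusted p = 0.00629) without the second FLO-1LM library, −0.17 (edgeR adjusted p = 0.328) without the first and −0.16 without the first parental library. The fits without the first and the second FLO-1LM library called 5.85% and 5.40% of all genes tested in them. Over all alternatives the adjusted p ran from 0.0337 to 0.999 for *XIAP* and from 0.00629 to 0.999 for *CFLAR*. Reads of *XIAP* could also be shared with 3 annotated pseudogenes, which had a mean of 50.8 counts in sum against 1317 for *XIAP*.

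The pore-forming effectors were level. *BAX* was at 35.1 and 36.98 CPM in FLO-1LM and 32.7 and 37.9 CPM in parental cells, and *BAK1* at 29.3 and 28.8 CPM in FLO-1LM and 29.2 and 25.9 CPM in parental cells. Their log2 fold changes were 0.03 ± 0.11 and 0.07 ± 0.12 (edgeR adjusted p = 0.948 and 0.879), and the lines overlapped for both. For *BOK*, the less studied relative, the value was −0.01 ± 0.12. *BAK1* has 2 pseudogenes with a mean of 234 counts in sum against 633 for *BAK1*, so the division of reads between them is uncertain.

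The BH3-only genes had the lowest median log2 fold change of the roles. Of the 8, 6 had estimates below 0, with a group median of −0.19, and 4 (*PMAIP1*, *BCL2L11*, *HRK* and *BIK*) had both FLO-1LM libraries below both parental libraries. Of all tested genes, 49.6% had an estimate below 0 and 21.7% had this separation. The member with the smallest p of all 35 was *PMAIP1*, which encodes NOXA, a BH3-only protein that binds MCL1. *PMAIP1* was at 43.9 and 45.2 CPM in FLO-1LM and 57.6 and 53.6 CPM in parental cells. The libraries of each line sat close together and apart from the other line, with a log2 fold change of −0.32 ± 0.095 (95% interval −0.52 to −0.12), or 0.697 to 0.920 times the parental level. Its p of 0.00343 in edgeR ranked 561 of 17143 and became 0.105 after adjustment.

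*BCL2L11* encodes BIM, which binds all the anti-apoptotic BCL2 proteins. It was at 53.3 and 54.0 CPM in FLO-1LM and 72.6 and 61.3 CPM in parental cells. The FLO-1LM libraries were nearly equal, and the first parental library stood well above the second (log2 fold change −0.32 ± 0.098, 95% interval −0.53 to −0.12, edgeR adjusted p = 0.120). *HRK*, which encodes the BH3-only protein harakiri, is barely expressed and had 71 and 79 counts in FLO-1LM and 104 and 93 counts in parental cells. In CPM these are 3.19 and 3.07 against 4.72 and 4.85, tight within each line (−0.61 ± 0.27, 95% interval −1.18 to −0.04, edgeR adjusted p = 0.359). *BIK* had 86 and 82 counts in FLO-1LM and 118 and 88 counts in parental cells, or 3.86 and 3.19 against 5.35 and 4.59 CPM, again without overlap (−0.50 ± 0.27, edgeR adjusted p = 0.479).

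*BCL2L11* and *PMAIP1* passed the adjusted threshold in some fits that left out 1 FLO-1LM library. With *XIAP* and *CFLAR*, the members called were 2 of 35 (5.71%, against 5.85% of all genes) without the first and 3 of 35 (8.57%, against 5.40%) without the second, so calls were more frequent in those fits for all genes. *BCL2L11* had −0.31 with edgeR adjusted p = 0.0417 without the first and −0.33 with edgeR adjusted p = 0.0344 without the second, and *PMAIP1* had −0.34 with edgeR adjusted p = 0.0380 without the second. Over all alternatives the adjusted p ran from 0.0344 to 0.999 for *BCL2L11* and from 0.0380 to 0.946 for *PMAIP1*. The log2 fold change stayed below 0 throughout, from −0.44 without the second parental library to −0.19 without the first for *BCL2L11*, and from −0.37 to −0.27 for *PMAIP1*. The exons of *BCL2L11* share 10.8% of their bases with *MIR4435-2HG* on the opposite strand, which had 0.617 times its counts, and the strand setting of the counting is not stated.

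The other 4 BH3-only genes were within their error. *BID*, *BAD*, *BMF* and *BBC3* (PUMA) had log2 fold changes of −0.01 ± 0.082, 0.06 ± 0.15, 0.09 ± 0.18 and −0.06 ± 0.17, and the lines overlapped for each. Of the exon bases of *BAD*, 23.7% lie opposite *GPR137*, which had 2.04 times its counts. *BBC3* and *PMAIP1* are both known targets of p53, and only *PMAIP1* had an interval that lay wholly below 0. That contrast was not tested.

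The 250 bases before the annotated start of *PMAIP1*, *BCL2L11* and *HRK* are shown because these are the BH3-only members with the smallest p (RefSeq, build GRCh38.p14, gene strand, 5′ to 3′). They lie at chr18:59899746-59899995 on the plus strand, chr2:111120664-111120913 on the plus strand and chr12:116881442-116881691 on the minus strand. Capitals mark matches, on either strand, to the GC box GGGCGG, the forkhead core GTAAACA or the cyclic AMP element half-site TGACGT, and none of the matches overlap.
PMAIP1: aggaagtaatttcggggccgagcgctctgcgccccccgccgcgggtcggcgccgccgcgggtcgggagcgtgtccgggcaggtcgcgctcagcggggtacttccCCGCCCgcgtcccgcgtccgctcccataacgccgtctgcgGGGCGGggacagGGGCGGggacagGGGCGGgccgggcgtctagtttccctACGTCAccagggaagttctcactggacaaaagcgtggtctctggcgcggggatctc
BCL2L11: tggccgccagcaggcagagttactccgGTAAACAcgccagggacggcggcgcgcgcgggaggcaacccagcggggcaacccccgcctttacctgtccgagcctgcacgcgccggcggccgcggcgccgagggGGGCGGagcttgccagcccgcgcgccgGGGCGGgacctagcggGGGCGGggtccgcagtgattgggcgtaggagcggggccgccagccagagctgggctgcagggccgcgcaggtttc
HRK: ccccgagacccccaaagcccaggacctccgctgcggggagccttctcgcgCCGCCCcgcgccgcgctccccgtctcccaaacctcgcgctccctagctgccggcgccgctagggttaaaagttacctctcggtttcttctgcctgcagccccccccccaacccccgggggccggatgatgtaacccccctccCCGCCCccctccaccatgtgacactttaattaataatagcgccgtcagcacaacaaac

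These windows are rich in G and C, at 72.8% for *PMAIP1*, 76.8% for *BCL2L11* and 66.4% for *HRK*, with 36, 34 and 22 CG dinucleotides. *PMAIP1* holds 4 GC boxes, *BCL2L11* 3 and *HRK* 2. The forkhead core is present only in *BCL2L11* of the 32 members with a window, 223 bases before the start. These members have 58 windows in all, of which 1.72% hold it, against 2.98% of all 35116 windows. The cyclic AMP half-site, read as ACGTCA on the opposite strand, lies 56 bases before the start of *PMAIP1*, and 6 of the 58 windows (10.3%) hold one, against 7.10% of all windows. GC boxes are in 38 of the 58 windows (65.5%) and in 42.6% of all windows. These are matches of letters, and binding was not measured.

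Summed over each arm of the BCL2 family in TPM, the arms kept their order in every library. The 3 anti-apoptotic genes summed to 198 and 200 TPM in FLO-1LM and 221 and 197 in parental cells, and the 3 effectors to 147 and 147 against 146 and 154. The 8 BH3-only genes summed to 254 and 239 in FLO-1LM and 277 and 278 in parental cells. The BH3-only sum did not overlap between the lines, while the other sums did. TPM is a share of the whole library, and the mitochondrial share given above also differed between the lines, whose part in these sums was not tested. The ratio of the anti-apoptotic to the BH3-only sum is free of that share and overlapped between the lines, at 0.782 and 0.834 in FLO-1LM and 0.798 and 0.710 in parental cells. The ratio to the effectors was 1.34 and 1.36 in FLO-1LM and 1.51 and 1.28 in parental cells, where the FLO-1LM libraries lay between the parental libraries.

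**Figure D2:**
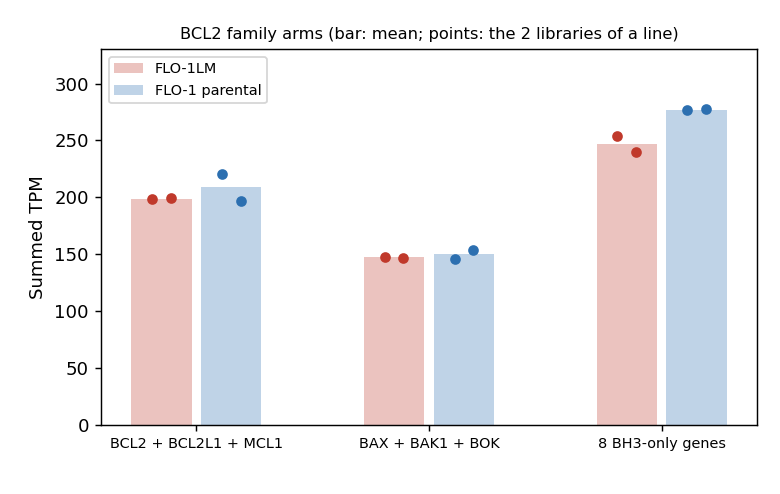
Summed transcript levels of the 3 arms of the BCL2 family, in TPM, as the mean of the 2 libraries of each line (bars) with each library as a point. The points of the lines overlap for the anti-apoptotic genes and the effectors, and the BH3-only sum is 254 and 239 TPM in FLO-1LM and 277 and 278 TPM in parental cells.

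The 5 caspase genes tested had intervals that reached across 0. *CASP8*, the initiator of the death receptor route, was at 26.5 and 23.0 CPM in FLO-1LM and 25.3 and 24.1 CPM in parental cells. The parental libraries lay within the FLO-1LM range, with a log2 fold change of 0.00 ± 0.13 (95% interval −0.26 to 0.27). *CASP6*, an executioner, was at 9.43 and 10.1 CPM in FLO-1LM and 9.07 and 8.45 CPM in parental cells, which did not overlap (0.15 ± 0.19, edgeR adjusted p = 0.827). *CASP9*, the caspase of the apoptosome, was at 26.8 and 30.4 CPM in FLO-1LM and 31.0 and 32.8 CPM in parental cells, also without overlap (−0.15 ± 0.12, edgeR adjusted p = 0.672). *CASP2* was at −0.03 ± 0.10. A small part of the *CASP6* exons (5.04% of bases) lies opposite *MCUB*, which had 2.96 times its counts. *CASP4*, an inflammatory caspase, had 12 and 5 counts in FLO-1LM and 10 and 9 in parental cells, and its interval of 0.240 to 2.57 times the parental level is too wide to place it.

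Among the genes of the apoptosome and of proteins released from mitochondria, *ENDOG* was the only one of 6 with an unadjusted p below 0.05 in edgeR. That is 16.7% of these genes, where 12.4% of all tested genes had such a p. *ENDOG* encodes endonuclease G, a mitochondrial nuclease. *ENDOG* was at 25.5 and 25.1 CPM in FLO-1LM and 31.3 and 29.4 CPM in parental cells. Each line was tight and they did not overlap (−0.26 ± 0.12, 95% interval −0.50 to −0.01, edgeR adjusted p = 0.368). Of its exon bases, 40.1% lie opposite *SPOUT1*, which had 2.24 times its counts, so the value depends on reads having been assigned by strand.

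*CYCS*, which encodes cytochrome c, was at 118 and 119 CPM in FLO-1LM and 120 and 124 CPM in parental cells, a log2 fold change of −0.04 ± 0.077. Its 41 annotated pseudogenes had a mean of 22.3 counts in sum, against 2681 for *CYCS*. *APAF1*, the scaffold of the apoptosome, was at 19.5 and 22.4 CPM in FLO-1LM and 24.3 and 20.5 CPM in parental cells, with overlapping lines (−0.10 ± 0.14). *HTRA2* and *AIFM1* had log2 fold changes of −0.03 ± 0.10 and 0.03 ± 0.088. *HTRA2* has 4.85% of its exon bases opposite *AUP1*, which had 2.48 times its counts, and 27.5% opposite *LOXL3*, which had 0.089 times. *DIABLO*, with 4.62 to 6.55 CPM over the 4 libraries, was less precise (0.10 ± 0.25), and 16.4% of its exon bases are shared on the same strand with another annotated gene that was listed at 0.

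All 4 genes grouped with the death receptor had estimates below 0, as did 49.6% of all tested genes. None had an unadjusted p below 0.05 in edgeR, where 12.4% of all tested genes did. *TNFSF10*, which encodes the death ligand TRAIL, had the largest log2 fold change of all 35 members and one of the lowest levels. It had 10 and 14 counts in FLO-1LM and 27 and 17 counts in parental cells. The lines did not overlap, but the parental libraries were themselves far apart (−1.08 ± 0.63, 95% interval −2.41 to 0.25, edgeR adjusted p = 0.540). *RIPK1*, the kinase at the branch between survival and death signalling, was at 53.5 and 56.8 CPM in FLO-1LM and 61.7 and 59.5 CPM in parental cells, without overlap (−0.14 ± 0.091, edgeR adjusted p = 0.622). *FAS*, the death receptor itself, and its adaptor *FADD* had log2 fold changes of −0.08 ± 0.16 and −0.04 ± 0.11, with overlapping lines.

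The intervals show how large a difference these libraries leave room for, and they may not cover the spread between separate cultures. For 29 of 35 members (82.9%) the 95% interval of the fold change lay within 1.5-fold in either direction, as it did for 59.4% of all tested genes. All 28 members with a mean of at least 10 CPM were among them, and so were 93.2% of the 10339 tested genes at that level. The 6 members with wider intervals were *BCL2*, *BIK*, *HRK*, *CASP4*, *DIABLO* and *TNFSF10*, each under 10 CPM. For these a difference of 1.5-fold remains possible in at least 1 direction.

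**Figure D3:**
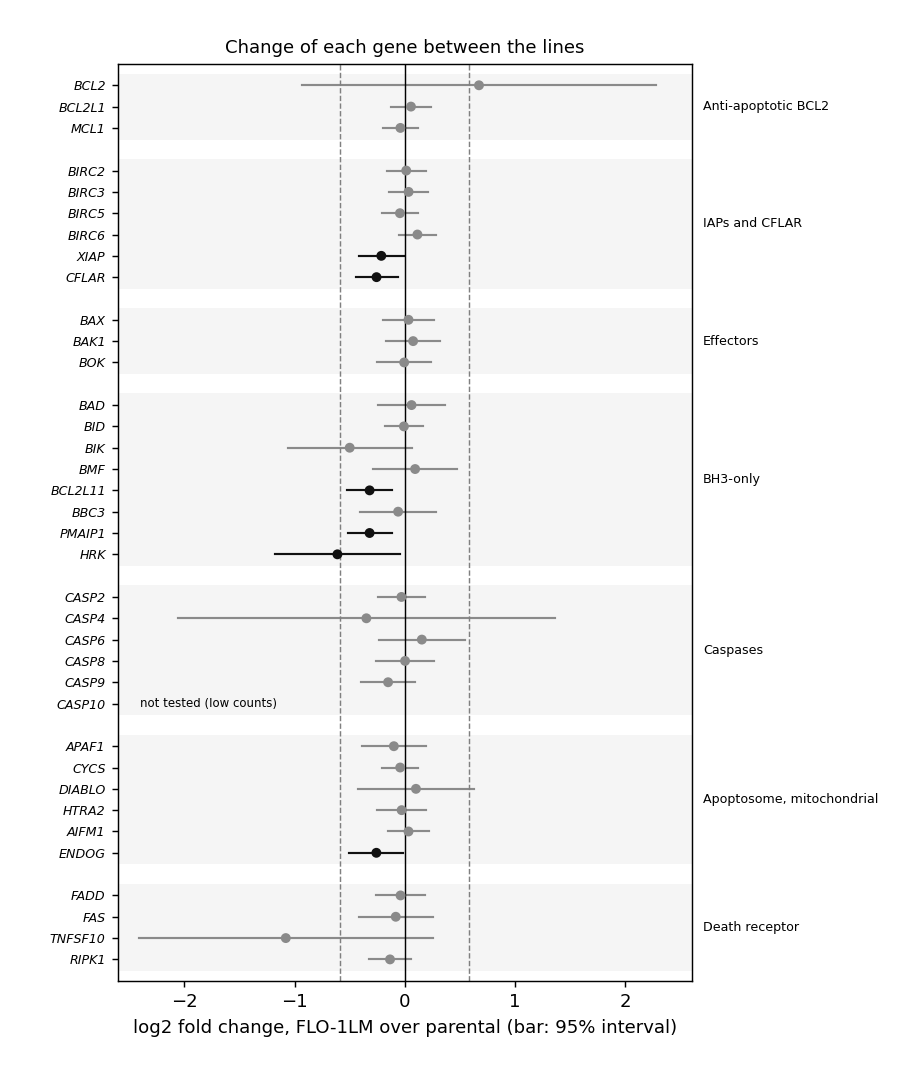
Log2 fold change of each apoptosis gene, FLO-1LM over parental, with its 95% interval from the edgeR fit. Dashed lines mark a 1.5-fold difference, and black marks the 6 genes with an unadjusted p below 0.05, all to the left of 0, none of which passed at an adjusted p below 0.05.

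A further list of 48 apoptosis genes outside the 36 had 38 tested and 0 passing at an adjusted p below 0.05 (edgeR), where 2.23% of all tested genes passed. The count was 0 also with DESeq2 and limma voom, where 1.97% and 2.15% of all tested genes passed. In edgeR 1 gene was lower and 1 was higher at an unadjusted p below 0.05 (5.26%, against 12.4% of all tested genes), and both FLO-1LM libraries lay below both parental libraries for 10 genes (26.3%, against 21.7%) and above them for 9 (23.7%, against 20.9%). *BNIP3L*, a mitochondrial receptor for the removal of mitochondria, was at 163 and 151 CPM in FLO-1LM and 128 and 135 CPM in parental cells (0.25 ± 0.078, edgeR adjusted p = 0.135). *TNFRSF1A*, the TNF receptor, was at 154 and 140 CPM in FLO-1LM and 168 and 172 CPM in parental cells (−0.22 ± 0.078, edgeR adjusted p = 0.216). Neither overlapped between the lines. The median log2 fold change of the 38 was −0.02.

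Since *PMAIP1*, *BBC3*, *BAX* and *FAS* are textbook targets of p53, a list of 26 p53 target genes that holds these 4 and 22 others was read as well. Of the 24 tested, 0 passed at an adjusted p below 0.05 in edgeR, DESeq2 or limma voom. Of all tested genes, 2.23%, 1.97% and 2.15% passed in these 3 fits. Of the 20 tested outside the 36, 3 were lower and 1 was higher at an unadjusted p below 0.05 in edgeR (4 of 20, against 12.4% of all tested genes), with a median log2 fold change of 0.08. *PMAIP1* was also lower, and with the 4 shared genes the median was 0.03. The smallest p outside the 36 belonged to *PHLDA3*, an inhibitor of AKT signalling, at 11.4 and 8.35 CPM in FLO-1LM and 14.4 and 13.6 CPM in parental cells (−0.51 ± 0.18, edgeR adjusted p = 0.220). The lines did not overlap for it, and the FLO-1LM libraries differed by more than the parental libraries did.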

How the data were processed

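RNA of FLO-1LM and FLO-1 parental cells (2 libraries each) was sequenced from directional libraries. The authors converted base calls with bcl2fastq 2.17, trimmed adapters with Trimmomatic 0.30, mapped reads to GRCh37 with an aligner that they do not name, and deposited raw counts per Ensembl gene. The counting program, its strand setting and its handling of reads with several matches are not given in the sources used here. Counts were analysed in R 4.3.3 with edgeR 4.0.16: the default filterByExpr thresholds (10 counts in 2 or more libraries, total of 15 or more), TMM scaling and the quasi-likelihood test, with Benjamini-Hochberg adjustment over 17143 genes and a threshold of 0.05. The SE was derived from the size of the log2 fold change and the F statistic of its test. Alternatives included DESeq2 1.42.0, limma voom (limma 3.58.1), other scalings and filters, and each library left out. With 2 libraries per line, no exact permutation test on 1 gene can give less than p = 0.333. Depth was 19060310 to 25920336 counts per library, and the median SE for the genes described was 0.111. TPM used the lengths of canonical transcripts (GENCODE 44 mapped to GRCh37). Libraries of a line were compared and were not duplicates of each other. Scripts were tested on simulated counts.

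The 36 genes and the lists of further apoptosis genes, p53 targets and cell type markers were chosen with earlier results of these data known. All 36 are named. Values of every library are given for the anti-apoptotic genes, for genes with an unadjusted p below 0.05 and for the 2 genes of each role with the largest absolute log2 fold change, and for a few others. From the other lists, the 2 genes with the smallest p were named.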

Additional observations from a re-analysis of the deposited data

How the results depend on the processing

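Members were recomputed under 11 alternatives. Of 383 values, 351 kept their direction, and the 32 that did not belonged to 19 genes whose log2 fold change was at most 0.35 in size. The count of all genes called was 382, became 577 with no filter on low counts, and ran from 116 to 1052 when 1 library was left out, which assumes that the lone library of a line varies like those of the other. Of the 35 genes described, 0 to 3 were called on leaving out a library: 2 without the first FLO-1LM library (5.71%, against 5.85% of all genes tested in that fit), 3 without the second (8.57%, against 5.40%) and 0 without the first or second parental library (0.651% and 0.775% of all genes). For the anti-apoptotic genes, the pro-apoptotic genes, the other apoptosis genes and the p53 targets, calls came only on leaving out a FLO-1LM library. More of all genes were called in those fits than with a parental library left out. The p53 list shares *PMAIP1* with the genes described. The other 7 alternatives called 0 of the 33 to 36 members tested in each, where 1.74% to 2.41% of all genes were called. The median of the anti-apoptotic genes ran from −0.073 to 0.080 on leaving out a library, and that of the pro-apoptotic genes from −0.086 to −0.016, and it was −0.072 with library totals only. The causes of these shifts were not tested.

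Directions reversed with library totals only for *BIRC2* (−0.020) and *CASP8* (−0.030). *CASP8* was also below 0 with limma voom (−0.0083), with at least 10 counts in every library (−0.0048) and with mitochondrially encoded genes left out (−0.00030). On leaving out each library in turn, log2 fold changes crossed 0 for *MCL1* (−0.11 to 0.028), *BIRC2* (−0.069 to 0.099), *BIRC3* (−0.073 to 0.15), *BAX* (−0.073 to 0.14), *BAK1* (−0.0070 to 0.16), *BOK* (−0.16 to 0.13), *BAD* (−0.097 to 0.23), *BID* (−0.071 to 0.051), *BMF* (−0.062 to 0.23), *BBC3* (−0.24 to 0.14), *CASP2* (−0.12 to 0.051), *CASP4* (−1.22 to 0.22), *CASP8* (−0.10 to 0.10), *APAF1* (−0.22 to 0.027), *DIABLO* (−0.17 to 0.33), *HTRA2* (−0.088 to 0.025), *AIFM1* (−0.087 to 0.14), *FADD* (−0.14 to 0.062) and *FAS* (−0.37 to 0.16). No paired analysis was possible because the labels give no replicate numbers. Depth limits *BCL2*, *CASP4*, *CASP10* and *TNFSF10*, at 27 counts or fewer per library.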

Other observations

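Some apoptosis genes were close to absent from both lines and stood outside the main comparison. Of the further list of 48, 10 did not pass the filter on low counts. *FASLG* and *RIPK3*, the ligand of FAS and a kinase of necroptosis, were at 0 in every library. *NAIP*, an IAP family member that senses bacterial proteins, had 0 and 13 counts in FLO-1LM and 6 and 1 in parental cells, so libraries of the same line disagreed. *CASP1*, an inflammatory caspase, had 6 and 18 counts in FLO-1LM and 2 and 5 in parental cells, and *BNIP3*, a relative of *BNIP3L*, had 0 and 0 in FLO-1LM and 2 and 0 in parental cells. These 3 genes were named after their values were seen.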
